A study of Mus musculus with 6 samples.

Results

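Matrix proteases cut the proteins between cells, and dedicated inhibitors limit them. The 41 genes described here are the members of 5 families in whole mouse tibialis anterior (TA) muscle: 9 matrix metalloproteinases (Mmp), 4 tissue inhibitors of metalloproteinases (Timp), 11 secreted proteases with thrombospondin repeats (Adamts), 5 Adamts-like proteins without a protease domain (Adamtsl) and 12 disintegrin metalloproteinases (Adam). They were chosen by gene symbol alone, as every row of a table of 13226 genes whose symbol began with one of these family names and a digit. The rule used no measured value, but the set was picked with earlier results of these data known. The mouse annotation lists 83 protein-coding genes of these families, and the other 42 were not analysed here.

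All samples came from male C57BL/6 mice aged 8 weeks, whose TA muscles of both legs were injected with AAV6 vectors, adeno-associated viruses that enter muscle fibres, and were removed 7 days later. One muscle received AAV6:Yap-shRNA, a short hairpin RNA against the Hippo pathway co-activator Yap, and the muscle of the other leg received the control vector. There were 3 muscles in each group. The titles of the control samples call their vector empty and the vector field calls it AAV6:LacZ-shRNA, a hairpin against a bacterial gene, so the group is called control here. Per the labels the Yap hairpin was cloned into a plasmid with a CMV promoter and eGFP, and the promoter that drove the hairpin itself is not given in the sources used here. The RNA was that of the whole muscle, so a difference can come from any cell type in it.

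Matrix metalloproteinases are made as inactive precursors, are activated by other proteases, and are blocked in their active site by Timp proteins. Adamts enzymes trim proteoglycans and procollagens, whereas most Adam proteins sit in the cell membrane and release the outer parts of receptors and growth factors. In muscle these genes are known mainly from fibroblasts, tendon cells, endothelial cells and macrophages, and are active when the matrix is remodelled after injury. Yap works through Tead transcription factors, and several Mmp genes are textbook targets of the AP-1 factors.

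The targeted gene was lower in the muscles labelled Yap-shRNA. Yap1 had 915, 781 and 833 reads in control muscles 1 to 3 and 381, 311 and 495 in Yap-shRNA muscles 1 to 3, with no overlap, and its mean level was 46.5% of control. Its log2 fold change was -1.10 (standard error 0.16), which over all genes left an adjusted p of 0.436 (edgeR, quasi-likelihood test). Libraries held 11987167 to 12710393 reads. Markers of muscle fibres (Acta1, Ckm, Myh4 and 3 others) were abundant in every library, at a summed 107138 to 128673 CPM (counts scaled to library size by edgeR's TMM method). Connective tissue markers set 2 libraries apart. The summed level of 6 tendon cell markers was 679.3 CPM in control 1 and 556.4 CPM in Yap-shRNA 3, against 127.1 to 176.2 CPM in the other 4 libraries. The summed level of 6 fibroblast markers was 1998 and 2281 CPM in the same libraries, against 1033 to 1229 CPM in the others. The summed level of 4 hepatocyte markers ran from 0.319 CPM in Yap-shRNA 3 to 336.3 CPM in control 3.

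None of the 41 genes passed the threshold of edgeR's quasi-likelihood test, an adjusted p of 0.05, nor did any of the 13226 genes (0%). At an unadjusted p under 0.05 there were 2 members, Mmp3 and Mmp9, both higher with Yap-shRNA, beside 232 of all genes (1.75%). With DESeq2 and with edgeR's likelihood ratio test 5 genes passed the adjusted threshold (0.0378%), and 0 of them were members. DESeq2 gave 2 members at an unadjusted p under 0.05, 1 higher and 1 lower, beside 1.02% of all genes. The unadjusted p of Mmp9 was 0.0601 with DESeq2. In 1 member, Mmp3, the 3 Yap-shRNA muscles lay entirely above the 3 control muscles, and in 0 members entirely below, whereas 5.27% of all genes had groups that did not overlap, 2.56% with Yap-shRNA higher and 2.71% with it lower. The fitted log2 fold change was above 0 in 28 of 41 members (68.3%) and in 48.9% of all genes. Its median was 0.065 over the members and -0.0029 over all genes. The count above 0 was 32 without control 1, 18 without control 2 and 19 without Yap-shRNA 3, so its excess over the lower members depended on single muscles. In whole muscle a smaller number of cells of a type and less RNA in each of them cannot be told apart.

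**Figure D1:**
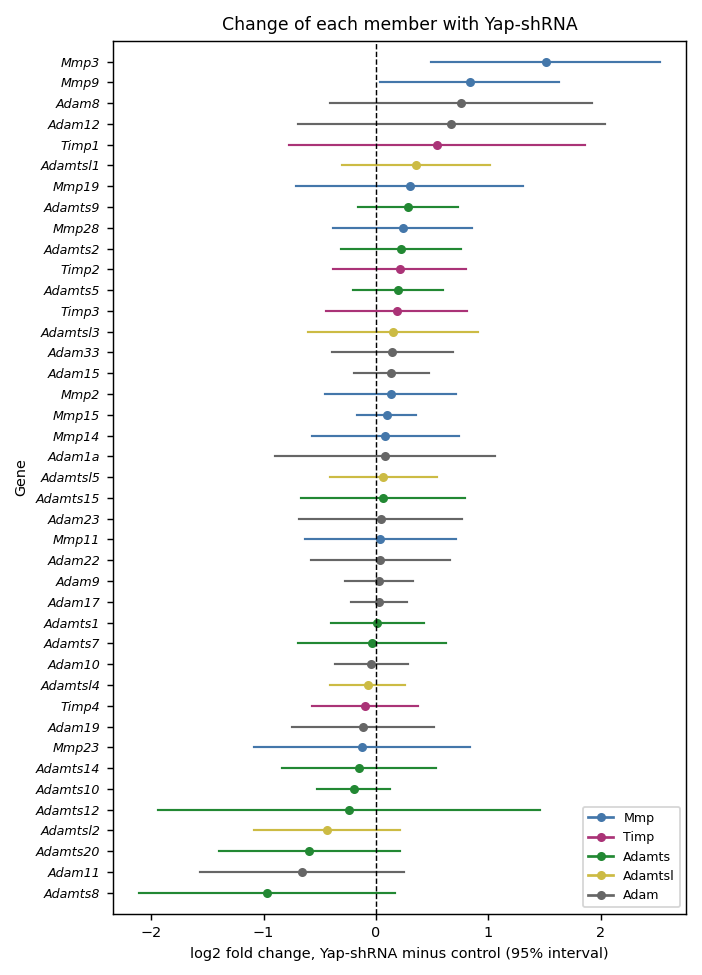
Log2 fold change of each of the 41 genes, Yap-shRNA minus control (x axis, log2 units; gene names on the y axis; points are estimates of edgeR's quasi-likelihood fit, lines 95% intervals, colours the 5 families). The intervals of Mmp3 and Mmp9 lie above 0 without adjustment for the number of genes, and the other 39 cross it.

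The promoter of Mmp3 is shown because Mmp3 was the member whose groups did not overlap, and that of Timp1 because it was the inhibitor gene with a Tead motif in this window. Each sequence is the 250 bases before the RefSeq transcription start (build GRCm38.p6, plus strand, written 5′ to 3′), Mmp3 at chr9:7445572-7445821 and Timp1 at chrX:20869916-20870165. Capitals mark the AP-1 motif TGANTCA, where N is any base, in Mmp3, and the Tead motif GGAATG in Timp1.
Mmp3: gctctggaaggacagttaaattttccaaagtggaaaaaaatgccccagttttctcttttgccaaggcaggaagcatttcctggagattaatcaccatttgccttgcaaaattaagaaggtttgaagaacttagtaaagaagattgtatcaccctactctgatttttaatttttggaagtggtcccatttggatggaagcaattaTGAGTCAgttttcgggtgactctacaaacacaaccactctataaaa
Timp1: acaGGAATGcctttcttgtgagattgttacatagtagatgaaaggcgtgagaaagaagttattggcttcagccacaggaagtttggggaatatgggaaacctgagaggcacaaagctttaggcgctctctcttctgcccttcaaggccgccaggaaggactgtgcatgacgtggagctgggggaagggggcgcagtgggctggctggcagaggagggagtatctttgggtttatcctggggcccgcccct
The AP-1 letters of Mmp3 lay 46 to 40 bases before the start, and the Tead letters of Timp1 lay 247 to 242 bases before it. RefSeq windows were matched for 28 of the 41 genes, 31 windows in all, and were searched on both strands. No window was matched for Mmp2, Mmp9, Mmp19, Adam9, Adam11, Adam12, Adam33, Adamts5, Adamts7, Adamts8, Adamts10, Adamts15 and Adamtsl1. The letters of the motifs can overlap, but the windows of Mmp3 and Timp1 held only the marked match. The positions of the matches in Adam19 are not given here. The AP-1 motif was in 2 of the 31 windows (6.45%), those of Mmp3 and Adam19, and in 6.75% of all 32851 windows. The Tead motif was in 2 windows (6.45%), those of Timp1 and Adam19, and in 12.6% of all windows. Such a match describes letters and is not a measured binding site.

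Mmp3 encodes stromelysin 1, a secreted protease that cuts proteoglycans, fibronectin and laminin and activates other metalloproteinases. The gene (ENSMUSG00000043613) lies on the plus strand of chromosome 9 of GRCm38, from 7445822 to 7455975. It had 15, 9 and 7 reads in control muscles 1 to 3 and 20, 21 and 49 in Yap-shRNA muscles 1 to 3. Every Yap-shRNA muscle was above every control muscle, and Yap-shRNA 3 was far above the rest. Scaled, Mmp3 stood at 0.831 ± 0.304 CPM (SD, n = 3) in the controls and 2.40 ± 1.31 CPM (SD, n = 3) with Yap-shRNA, 289% of control. Its log2 fold change was 1.51 (standard error 0.45; 95% interval 0.49 to 2.53), and edgeR's quasi-likelihood test gave an unadjusted p of 0.00831 and an adjusted p of 1.00. An exact two-sided permutation test gave p = 0.10, the smallest that 3 muscles against 3 allow. Without Yap-shRNA 3 the log2 fold change was 0.97 (unadjusted p 0.0404 by the same edgeR test), and without control 1 it was 1.84. These are low counts, and the difference did not pass the adjustment for 13226 genes.

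Mmp9 and Mmp2 encode the gelatinases, which cut denatured collagen and basement membrane collagen. Mmp9, made mainly by leukocytes and other activated cells, had 21, 17 and 18 reads in the controls and 32, 20 and 49 with Yap-shRNA. The control muscles were close together (1.51 ± 0.111 CPM, SD, n = 3), whereas the Yap-shRNA muscles spread from 1.54 to 3.91 CPM, the lowest of them below control 1. The log2 fold change of Mmp9 was 0.83 (standard error 0.35; unadjusted p 0.0417 and adjusted p 1.00 by edgeR's quasi-likelihood test). It was 0.47 without Yap-shRNA 3 (unadjusted p 0.215 by the same test). Of 4 neutrophil markers 1 was analysed, at 0.41 to 1.40 CPM, and its part in the values of Mmp9 was not tested. Mmp2, the gelatinase of fibroblasts, was the Mmp gene with the highest level per length, 52.8 TPM (reads per kilobase of exon, scaled to the same total in each library), and Mmp9 stood at 1.33 TPM. Mmp2 reached 104.1, 68.7 and 53.3 CPM in the controls and 78.1, 61.5 and 108.3 CPM with Yap-shRNA. The groups overlapped almost completely, with the 2 highest values in control 1 and Yap-shRNA 3. The log2 fold change of Mmp2 was 0.13 (95% interval -0.45 to 0.71).

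The membrane-type enzymes Mmp14 and Mmp15 act at the cell surface, and Mmp14 activates the precursor of Mmp2 there together with Timp2. Mmp14 reached 25.1, 14.2 and 12.8 CPM in the controls and 15.5, 14.1 and 25.7 CPM with Yap-shRNA, the same order of libraries at the top as Mmp2. Its log2 fold change was 0.085 (95% interval -0.57 to 0.74). Mmp15 was the steadiest Mmp gene, at 23.7 to 29.2 CPM in the controls and 25.4 to 30.0 CPM with Yap-shRNA, with a log2 fold change of 0.096 (95% interval -0.17 to 0.36). The remaining Mmp genes Mmp11 (stromelysin 3), Mmp19, Mmp23 and Mmp28 (epilysin) stood at 1.43 to 3.45 TPM, with log2 fold changes from -0.12 for Mmp23 to 0.30 for Mmp19. Exons of Tmem198b on the opposite strand cover 22.3% of the exon length of Mmp19, so its reads are uncertain. Of the 9 Mmp genes 8 had a fitted change above 0, against 48.9% of all genes. Without Yap-shRNA 3 the log2 fold changes of Mmp2 and Mmp14 were -0.11 and -0.23. Control 1 and Yap-shRNA 3 were the 2 highest libraries for 5 of the 9, against 11.3% of all genes.

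**Figure D2:**
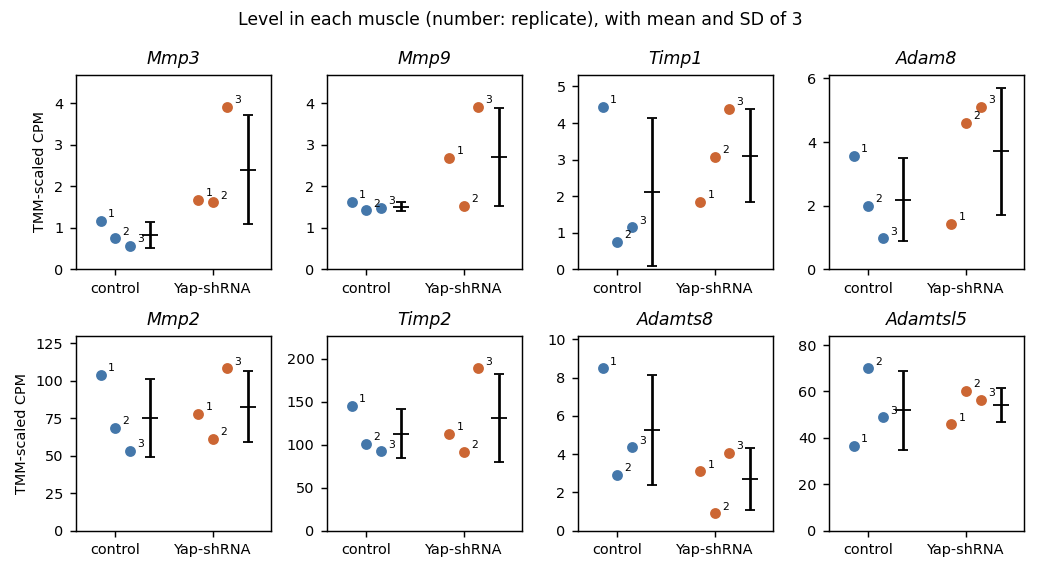
TMM-scaled level (y axis, CPM, from 0) of 8 genes in each muscle of both groups; numbers beside the points are replicate numbers, and the bars give the mean and SD of 3 muscles. Mmp3 is the gene whose groups do not overlap, at 0.574 to 1.17 CPM against 1.61 to 3.91 CPM, while Mmp2 and Timp2 are highest in control 1 and Yap-shRNA 3.

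The 4 Timp genes encode the inhibitors of these enzymes, and 3 of them are nested in synapsin genes: Timp1 lies inside Syn1, Timp3 inside Syn3 and Timp4 inside Syn2, each on the opposite strand. The strand setting of the counting is not given in the sources used here. Exons of Syn3 share 1733 bases with those of Timp3 and exons of Syn2 share 90 bases with those of Timp4, so reads there are uncertain. Timp2 had the highest level per length of all 41 genes, 70.5 TPM, followed by Mmp2. Timp4 stood at 12.4, Timp3 at 8.13 and Timp1 at 6.71 TPM.

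Timp1, the inhibitor known to be induced by growth factors and cytokines, had 57, 9 and 14 reads in the controls and 22, 40 and 55 with Yap-shRNA. Scaled, control 1 (4.44 CPM) was level with the highest Yap-shRNA muscle (4.39 CPM), and controls 2 and 3 lay under all of those. The fitted log2 fold change was 0.54 (standard error 0.58; adjusted p 1.00 by edgeR's quasi-likelihood test). Without control 1 it was 1.70 (unadjusted p 0.00373 and adjusted p 0.520 by the same test), whereas over all alternatives the adjusted p ran up to 1.00. Without control 1, 957 of all genes and 7 members had an unadjusted p under 0.05, against 232 and 2 in the main fit. The log2 fold change of Timp1 was 0.15 without control 2, 0.25 without control 3 and 0.21 without Yap-shRNA 3. It was above 0 in each fit that left out a muscle but of a size set by single muscles.

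Timp2 reached 145.7, 101.3 and 92.4 CPM in the controls and 112.9, 91.5 and 189.0 CPM with Yap-shRNA. Its highest libraries were Yap-shRNA 3 and control 1, as for Mmp2 and Mmp14. The log2 fold change of Timp2 was 0.21 (95% interval -0.38 to 0.80). Timp3, which binds to the matrix and also inhibits several Adam and Adamts enzymes, reached 42.7, 17.2 and 22.0 CPM in the controls and 29.4, 31.6 and 32.4 CPM with Yap-shRNA. The Yap-shRNA muscles were close together (31.1 ± 1.51 CPM, SD, n = 3) and the control muscles were not (27.3 ± 13.6 CPM, SD, n = 3), and the log2 fold change was 0.19 (95% interval -0.44 to 0.81). Timp4, an inhibitor known for high levels in heart and muscle, ran the other way among the libraries, at 23.3, 45.5 and 33.4 CPM in the controls and 29.9, 35.7 and 29.7 CPM with Yap-shRNA. It was lowest in control 1, and its log2 fold change was -0.098 (95% interval -0.57 to 0.38).

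Summed per family and per length, the Mmp genes reached 113.0, 68.7 and 57.2 TPM in the controls and 78.9, 72.4 and 111.7 TPM with Yap-shRNA. The Timp genes reached 125.1, 78.4 and 71.8 TPM in the controls and 87.2, 85.4 and 138.6 TPM with Yap-shRNA. Enzymes and inhibitors were thus highest in the same 2 muscles, 1 of each group. The ratio of the summed Mmp to the summed Timp level was 0.858 ± 0.0556 (SD, n = 3) in the controls and 0.853 ± 0.0493 (SD, n = 3) with Yap-shRNA, and lay between 0.796 and 0.904 in every library. Mmp2 made up 63.1% of the mean summed Mmp level and Timp2 72.1% of the Timp level, so the ratio mostly describes these 2 genes.

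**Figure D3:**
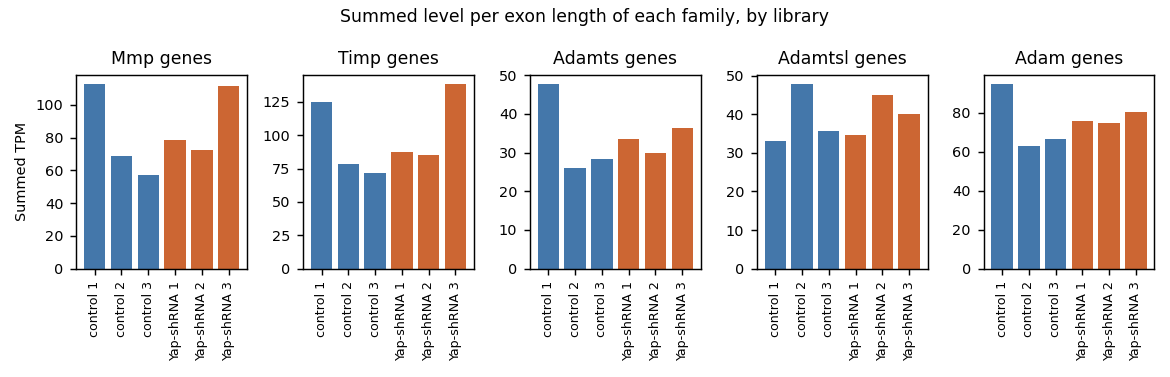
Summed level of each family in every library (y axis, TPM, from 0 with a scale of its own in each panel; blue bars are control and orange bars Yap-shRNA muscles 1 to 3). Mmp and Timp sums are highest in control 1 and Yap-shRNA 3, and the Adamts and Adam sums are highest in control 1.

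Among the 11 Adamts genes, Adamts1 had the highest level per length (14.8 TPM). It belongs, with Adamts5, Adamts8, Adamts9, Adamts15 and Adamts20, to the enzymes that cut aggrecan and versican, large proteoglycans of the matrix. Adamts1 reached 45.8, 27.6 and 30.1 CPM in the controls and 39.2, 32.6 and 32.9 CPM with Yap-shRNA, with a log2 fold change of 0.013 (95% interval -0.40 to 0.43). Control 1 was its highest library and was the highest control for 11 of the 11 Adamts genes, against 39.8% of all genes. Adamts1 and Adamts5 are neighbours on chromosome 16, and the log2 fold change of Adamts5 was 0.20 (95% interval -0.20 to 0.59). Adamts9 ran from 4.68 to 7.01 CPM in control and from 6.07 to 7.18 CPM in Yap-shRNA muscles, with a log2 fold change of 0.29 (95% interval -0.16 to 0.73).

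Adamts8 had the most negative fitted change of all members. It had 109, 35 and 53 reads in the controls and 37, 12 and 51 with Yap-shRNA. The groups overlapped, with control 1 far above and Yap-shRNA 2 far below the other libraries. The log2 fold change was -0.97 (95% interval -2.11 to 0.17; adjusted p 1.00 by edgeR's quasi-likelihood test), -0.44 without control 1 and -0.55 without Yap-shRNA 2. An antisense gene covers 10.6% of its exon length. Adamts15, which lies beside Adamts8 on chromosome 9 on the opposite strand, had a log2 fold change of 0.062 (95% interval -0.67 to 0.79). Adamts20 had 51, 18 and 33 reads in the controls and 18, 24 and 26 with Yap-shRNA, and a fitted log2 fold change of -0.59 (95% interval -1.40 to 0.21) with overlapping groups. That value was -0.22 without control 1 and -0.88 without control 2.

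Adamts2 and Adamts14 remove the amino-terminal propeptides of fibrillar procollagens. Adamts2 reached 26.0, 16.8 and 16.5 CPM in the controls and 18.5, 19.4 and 31.3 CPM with Yap-shRNA, with a log2 fold change of 0.22, and Adamts14 had one of -0.15. Both had control 1 and Yap-shRNA 3 as their highest libraries. Adamts7 and Adamts12 cut Comp, a cartilage and tendon matrix protein, and the log2 fold change of Adamts7 was -0.033. Adamts12 was the most variable member, with 36, 2 and 8 reads in the controls and 7, 15 and 17 with Yap-shRNA, and a fitted log2 fold change of -0.24 (95% interval -1.94 to 1.46). Without control 1 its log2 fold change was 1.30 and without Yap-shRNA 1 it was 0.034, both in the opposite direction. Adamts10, which binds fibrillin, was among the steadier genes and had a log2 fold change of -0.20 (95% interval -0.52 to 0.12).

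The Adamtsl proteins bind fibrillin and other matrix proteins but do not cut them. Adamtsl5 stood at 25.0 TPM and Adamtsl4 at 12.2 TPM, within the 7 highest of the 41 genes, and the other 3 Adamtsl genes stood under 1 TPM. Adamtsl5 reached 36.7, 70.0 and 48.8 CPM in the controls and 45.9, 60.3 and 56.3 CPM with Yap-shRNA. Like Timp4, it was lowest in control 1 and highest in control 2, and its log2 fold change was 0.065 (95% interval -0.41 to 0.54). Adamtsl4 was also lowest in control 1 and highest in control 2, at 19.8 and 28.8 CPM, with a log2 fold change of -0.075. Adamtsl2 had 31, 33 and 31 reads in the controls and 30, 25 and 16 with Yap-shRNA. Yap-shRNA 3 was its lowest library and Yap-shRNA 1 lay within the controls, and its log2 fold change was -0.43 (95% interval -1.08 to 0.22), or -0.68 with Yap-shRNA 1 left out and -0.21 with Yap-shRNA 3 left out. Adamtsl1 and Adamtsl3 had log2 fold changes of 0.36 (95% interval -0.30 to 1.02) and 0.15 (95% interval -0.61 to 0.91).

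Adam9, a membrane protease with many substrates, made up 51.7% of the mean summed Adam level. It reached 85.2, 59.1 and 68.4 CPM in the controls and 77.0, 70.4 and 69.9 CPM with Yap-shRNA, with a log2 fold change of 0.030 (95% interval -0.27 to 0.33). Adam10, which acts on Notch, and Adam17, which releases Tnf, are the main sheddases. Adam10 ran from 17.0 to 21.6 CPM in control and from 16.5 to 22.2 CPM in Yap-shRNA muscles, and Adam17 from 22.2 to 27.2 and from 23.5 to 26.6 CPM, the narrowest range of the 41 genes relative to its level. Their log2 fold changes were -0.042 (95% interval -0.37 to 0.28) and 0.027 (95% interval -0.22 to 0.28). Adam15 reached 32.2, 33.5 and 24.4 CPM in the controls and 30.1, 30.9 and 38.2 CPM with Yap-shRNA, with a log2 fold change of 0.14, and an antisense gene covers 20.6% of its exon length.

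Adam8 is known from myeloid cells and Adam12 (meltrin alpha) from developing and regenerating muscle. Adam8 had 46, 24 and 12 reads in the controls and 17, 60 and 64 with Yap-shRNA. Yap-shRNA 2 and 3 were above every control and Yap-shRNA 1 was not. Its log2 fold change was 0.76 (95% interval -0.41 to 1.92; adjusted p 1.00 by edgeR's quasi-likelihood test), and it was 1.31 without control 1, 0.41 without control 3 and 0.46 without Yap-shRNA 3. Adam12 had 15, 3 and 6 reads in the controls and 5, 20 and 14 with Yap-shRNA, and a fitted log2 fold change of 0.67 (95% interval -0.70 to 2.04), and was the lowest of the 41 genes per length. The fold change of Adam12 on that scale was 1.45 without control 1, 0.30 without control 2 and 0.26 without Yap-shRNA 2. The summed level of 10 macrophage markers was 236.3, 147.3 and 100.4 CPM in the controls and 171.6, 205.9 and 221.9 CPM with Yap-shRNA. The sum and Adam8 were both lowest in control 3. The sum was highest in control 1, whereas Adam8 was highest in Yap-shRNA 3. All 10 markers had a fitted log2 fold change above 0 (median 0.34), against 48.9% of all genes, and 0 passed the adjusted threshold of edgeR's quasi-likelihood test. The part of macrophages in the values of Adam8, Mmp9 and Timp1 was not tested. Adam11, a family member without an active protease site, had 20, 29 and 21 reads in the controls and 12, 9 and 24 with Yap-shRNA, giving a log2 fold change of -0.65 (95% interval -1.56 to 0.25), or -0.37 with Yap-shRNA 2 left out and -1.16 with Yap-shRNA 3 left out. The other members not described singly (Adam19, Adam1a, Adam22, Adam23 and Adam33) had log2 fold changes from -0.11 to 0.15, and 63.7% of the exon length of Adam1a is shared with another gene on the same strand.

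The members varied between muscles of 1 group. Their median biological coefficient of variation was 22.9%, against 14.5% over all genes. That comparison is not matched for read number: 20 of 41 members reached a mean of 50 reads, against 9809 of 13226 genes. Over the 6 libraries of both groups, the level in the highest exceeded that in the lowest by 1.23 to 16.8 times. Control 1 was the highest control for 34 of 41 members (39.8% of all genes), and Yap-shRNA 3 the highest Yap-shRNA muscle for 28 (33.7% of all genes). Both together were the 2 highest of the 6 libraries for 21 members, or 51.2%, against 11.3% of all genes. Control 1 was the highest of all libraries for 18 members and Yap-shRNA 3 for 15, while control 2 was the lowest for 17. With both muscles left out, 13 of 41 members had groups that did not overlap, against 35.0% of all genes, and 0 passed an adjusted p of 0.05.

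**Figure D4:**
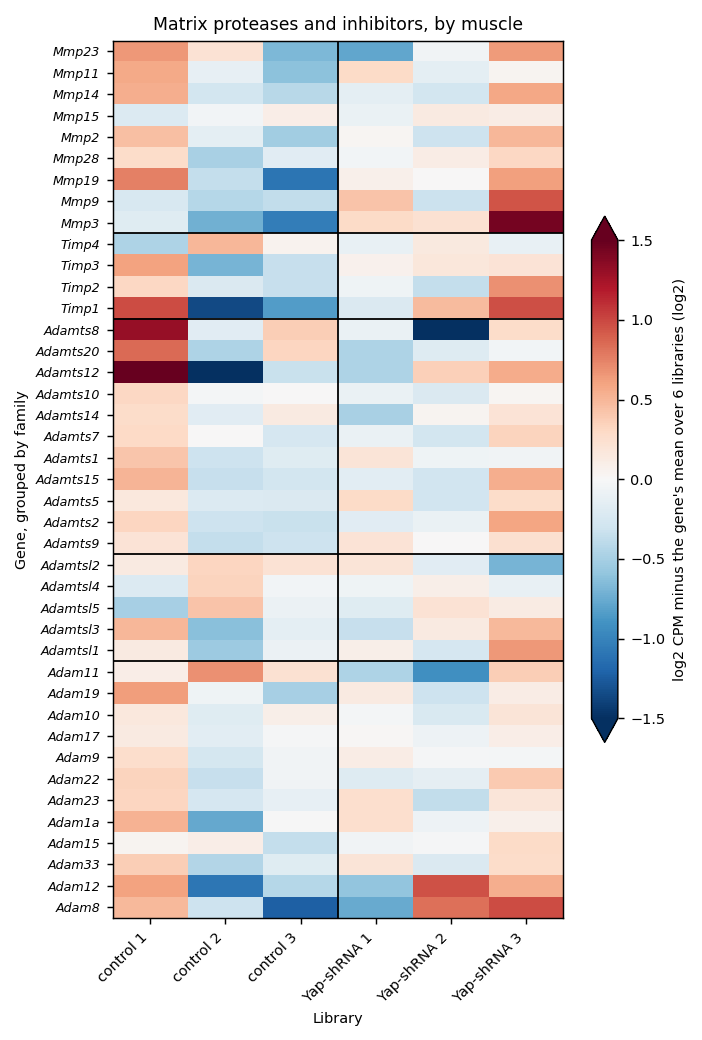
Level of each member in each library (colour, log2 CPM minus the mean of the gene over 6 libraries; rows are genes by family and, within it, from the most negative to the most positive fold change; columns are the 6 libraries). Red prevails in the columns of control 1 and Yap-shRNA 3, with exceptions such as Timp4, Adamtsl4 and Adamtsl5, which are blue in control 1.

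The summed level of the 6 fibroblast markers was also highest in control 1 and Yap-shRNA 3. In control 1, Col1a1 and Col3a1 made up 673 and 790 of its 1998 CPM, so the sum describes these collagen genes to a large part. The marker Dpt was higher in Yap-shRNA 1 (42.9 CPM) than in control 1 (41.2 CPM). Per 100 CPM of the 6 fibroblast markers, Mmp2 stood at 5.21, 5.63 and 5.16 CPM in control and at 6.35, 5.03 and 4.75 CPM in Yap-shRNA muscles, a narrower range than before that division. Mmp14 stood at 1.25, 1.16 and 1.24 CPM in the controls and 1.26, 1.15 and 1.13 CPM with Yap-shRNA on the same scale. The ratio of the highest to the lowest library was smaller after the division for 24 of 41 members (58.5%) and for 9.24% of all genes. For other members it grew, from 1.26 to 2.38 for Mmp15, 1.44 to 2.16 for Adam9 and 1.95 to 3.20 for Timp4. The marker sum itself ran from 1033 to 2281 CPM, so dividing by it widens the range of a steady gene. The share of all genes is therefore not a like background. The same holds for the shares of all genes without overlap on that scale. Mmp3 stayed apart between the groups, at 0.0584, 0.0616 and 0.0556 CPM in the controls and 0.137, 0.132 and 0.171 CPM with Yap-shRNA. It was the 1 member higher without overlap on that scale, beside 0.386% of all genes, and 0 members were lower, beside 0.529%. The division was chosen after the values were seen, and the part of fibroblast or tendon tissue in the results was not tested.

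**Figure D5:**
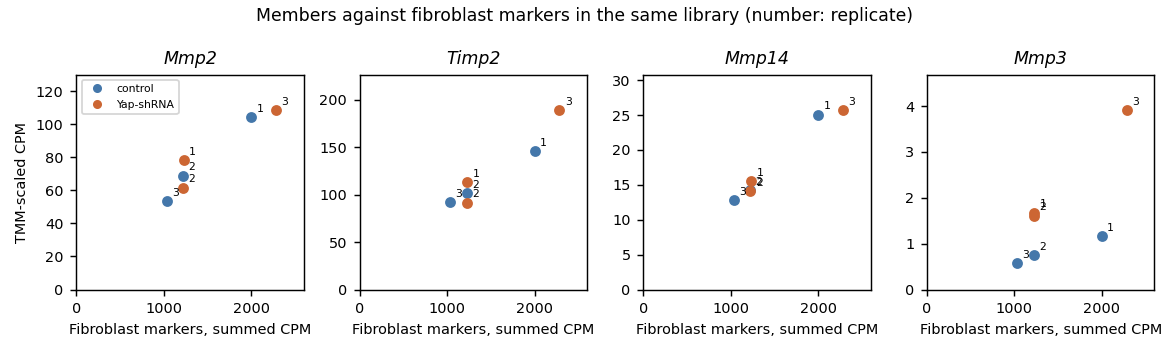
Level of 4 members (y axis, TMM-scaled CPM) against the summed level of 6 fibroblast markers in the same library (x axis, CPM); blue points are control and orange points Yap-shRNA muscles, with replicate numbers. Mmp2, Timp2 and Mmp14 are higher in the 2 libraries with most fibroblast marker RNA, and the Mmp3 values of the Yap-shRNA muscles lie above those of control muscles with a similar marker sum.

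Of 66 other genes listed for the control and substrates of these proteases, 51 were tested. Of these, 0 passed the threshold of edgeR's quasi-likelihood test, an adjusted p of 0.05, and 3 were higher and 0 lower without overlap. That is 3 of 51, a share near the background of 5.27% of all genes in either direction (2.56% higher and 2.71% lower). Their median log2 fold change was 0.057. Reck encodes a membrane-anchored inhibitor of Mmp2, Mmp9 and Mmp14, and had 40, 33 and 32 reads in the controls and 41, 46 and 65 with Yap-shRNA. All 3 Yap-shRNA muscles were above the controls, by a log2 fold change of 0.51 (unadjusted p 0.0498 and adjusted p 1.00 by the same test), and of 0.30 without Yap-shRNA 3 (unadjusted p 0.25 by the same test). The unadjusted p of Reck was 0.122 with DESeq2 and 0.0677 with edgeR's likelihood ratio test. By the quasi-likelihood test it was 0.0450 without Yap-shRNA 1, 0.0496 without Yap-shRNA 2 and 0.0450 with at least 10 reads in every library. That test gave Reck an unadjusted p of 0.0520, 0.0968 and 0.120 without control 1, 2 and 3. With same-numbered muscles treated as pairs the p was 0.0759. Upper-quartile normalisation gave 0.0518 and no normalisation 0.0515 by that test, and limma-voom gave 0.0655.

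Plg (plasminogen) and Pzp, a broad protease inhibitor, were the listed genes lower at an unadjusted p under 0.05, and in the same edgeR test the adjusted p of each was 1.00. Both encode liver plasma proteins, and their reads lay mainly in control 3 (98 and 137 reads), the library with the highest hepatocyte markers. The protease gene Htra1 and the Adam17 substrate Tnfrsf1a, a Tnf receptor, were higher without overlap by log2 fold changes of 0.17 and 0.29. Their unadjusted p by edgeR's quasi-likelihood test was 0.118 and 0.0264, and neither passed the adjusted threshold. For Htra1 the gap was narrow, from 29.4 CPM in control 1 to 29.8 CPM in Yap-shRNA 1. The proprotein convertases, which activate Mmp14 and the Adam and Adamts precursors, the 8 genes for partners of Adam10 and Adam17 that were tested, and the procollagen C-proteinases had 0 genes at an unadjusted p under 0.05.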

How the data were processed

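Polyadenylated RNA of 6 whole TA muscles was sequenced. The authors deposited raw read counts per gene, without normalisation, in which no gene has fewer than 60 reads over the 6 libraries. The submitters' processing notes name bcl2fastq 2.20.0.422 and the build GRCm38, and the aligner, counter and strand setting are not given in the sources used here. TMM scaling and the quasi-likelihood test of edgeR 4.0.16 in R 4.3.3 were run on all 13226 genes, with the 2 groups and no covariate, and with Benjamini-Hochberg adjustment. Each standard error was derived from the F statistic of that gene, and 95% intervals from its degrees of freedom. TPM used exon lengths from GENCODE M21, known for 13204 genes. On simulated counts for this comparison and 13226 genes, 160 of 200 changed genes were recovered and 12 unchanged genes were called. Those values describe the simulated counts only. In the measured counts the quasi-likelihood test called 0 of 13226 genes, and the share of true differences it would recover in these muscles was not tested. No library repeated another of its group: the chi-square of paired libraries over their degrees of freedom was 7.62 to 21.4, where 1 is sampling noise.

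The description of the study pairs muscles within animals, but no label ties replicate numbers to animals, so the fit without pairing is the main one. P-values set the difference between the groups against the variation between these muscles, as each test estimated it. Named genes were Yap1, the Timp genes, the 3 highest members per length of the Mmp, Adamts with Adamtsl, and Adam families, members at an unadjusted p under 0.05 or without overlap, the 5 most positive and 5 most negative log2 fold changes, and listed pathway genes at an unadjusted p under 0.05 or without overlap, of which 1 is not reported here. Other members appear by role. The members and gene lists were chosen with earlier results of these data known. Alternatives were DESeq2 1.42.0, the likelihood ratio test, limma-voom (limma 3.58.1), upper-quartile or no normalisation, 2 count filters, a replicate block and leaving out each muscle. Leaving out control 1 and Yap-shRNA 3 together, and division by fibroblast markers, were added after seeing the data.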

Additional observations from a re-analysis of the deposited data

How the results depend on the processing

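In every setting run, 0 of the members tested were called. All genes gave 5 calls with DESeq2, 5 with the likelihood ratio test, 3 without control 1 and Yap-shRNA 3 together, and 0 to 1 when 1 muscle was left out. Yap1 passed the threshold with DESeq2 (log2 fold change -1.10, adjusted p 5.85e-07) and the likelihood ratio test (-1.10, adjusted p 2.22e-06), its adjusted p reached 1.00 in other fits, and its log2 fold change was -1.29 to -0.93 without each muscle. The median of the members was -0.040 to 0.33 without each muscle, lowest without control 2 and highest without control 1. Members without overlap numbered 1 to 11 without each muscle, most without control 1 (23.8% of all genes), and 13 without control 1 and Yap-shRNA 3 together. Mmp3 and Mmp9 were above 0 in each fit in which they were tested. Filters of at least 10 reads in every library and of a mean of 50 reads tested 35 and 20 members, both without Mmp3 and Timp1 and the latter also without Mmp9 and Reck.

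Under a replicate block that treats muscles of the same number as pairs, 0 members were called, the log2 fold change of Mmp3 was 1.44 and that of Yap1 -1.13 (adjusted p 0.105), and only Adamts12 changed direction among the named members (0.10). Deviations of same-numbered muscles correlated across genes at -0.065, 0.20 and -0.32. These values cannot show whether same-numbered muscles came from the same animal. The block stayed an alternative because no label ties the numbers to animals. Adamts12 was also above 0 with limma-voom (0.42) and without control 1 and Yap-shRNA 3 together (1.07), a fit in which Mmp15 (-0.0084) and Adamtsl5 (-0.16) fell below 0. Without each muscle in turn, log2 values lay between these bounds: -0.15 to 0.44 for Timp2, -0.058 to 0.67 for Timp3, -0.31 to 0.17 for Timp4, -0.11 to 0.44 for Mmp2, -0.23 to 0.45 for Mmp14, -0.13 to 0.34 for Adamtsl5, -0.12 to 0.27 for Adamts1, -0.19 to 0.091 for Adamtsl4, -0.086 to 0.18 for Adam9, -0.16 to 0.056 for Adam10 and -0.74 to 1.30 for Adamts12. Those of Adamts20 (-0.88 to -0.22), Adamtsl2 (-0.68 to -0.21), Adam8 (0.41 to 1.31), Adam12 (0.26 to 1.45) and Adam11 (-1.16 to -0.37) kept their sign. Members had 63 to 9118 reads over the 6 libraries. The printed intervals are not adjusted for the number of genes. They do not give the size of change that 3 muscles a group could detect. Of 315 combinations of named member and setting, 290 kept direction and 25 did not. The cause was not tested.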
